A study of Homo sapiens with 12 samples.

Results

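The androgen response that remains in LNCaP cells depleted of paxillin is described here, as the difference between DHT and vehicle after PXN siRNA. The members are the 6 libraries of the PXN siRNA, 3 with DHT and 3 with vehicle, out of 12 libraries in the series, and every tested gene was read in them. LNCaP is an established androgen-sensitive prostate cancer line from a lymph node metastasis, and PXN encodes paxillin, an adaptor protein of focal adhesions. All cells were transfected for 48 h, either with an siRNA against PXN or with a non-specific siRNA, and were then starved of serum for 12 h. They next received 2.5 nM dihydrotestosterone (DHT), or ethanol as the vehicle, for 24 h, and mRNA was sequenced with 3 replicates in each of the 4 groups. The comparison asks which genes still respond to androgen when paxillin is low. Whether replicates were grown as separate cultures is not in the labels, and the p-values below therefore cover only how far these libraries differ, which may be technical.

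Androgens such as DHT change transcription through hormone-dependent binding to androgen response elements in DNA. In luminal prostate cells the known targets include secreted proteases of the kallikrein family, transcription factors, membrane transporters and enzymes of lipid and polyamine metabolism, while another group of genes is repressed. Paxillin links integrins to the cytoskeleton and to kinase signalling.

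PXN, the targeted gene, was read first. PXN stood at 15.2, 21.2 and 14.9 CPM (a gene's counts scaled to the size of its library) with vehicle and at 19.96, 18.1 and 16.6 CPM with DHT in the cells with PXN siRNA (replicates 1 to 3), against 99.7 to 113 CPM in the 6 libraries with non-specific siRNA. DHT itself left no detectable difference in PXN after PXN siRNA (log2 fold change 0.09 ± 0.12 SE, edgeR quasi-likelihood test, adjusted p = 0.933).

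The libraries held 34321000 to 38633456 counts, 1 CPM stands for 33.65 to 38.2 counts, and 18468 of 36137 listed genes were tested. The markers were mostly those of luminal prostate cells: the 10 luminal prostate markers summed to 3652 to 3988 CPM with vehicle and 4110 to 4345 CPM with DHT after PXN siRNA. KRT8, KRT18, CDH1, EPCAM and HOXB13 were each above 100 CPM in all 6 libraries. Of the same list, AMACR was at 18.5 to 23.2 CPM and the keratin KRT19 at only 0.807 to 1.39 CPM. The 5 basal markers summed to at most 0.442 CPM, with TP63 at 1 count or fewer in each library. The 12 stromal, endothelial and leukocyte markers summed to 59.3 to 62.1 CPM with vehicle and 61.8 to 72.1 CPM with DHT, most of it from COL1A1, VWF and TAGLN, while PTPRC, PECAM1, COL1A2 and LYZ never passed 3 counts. The 8 neuroendocrine markers summed to 55.5 to 69.0 CPM with vehicle and 53.3 to 69.5 CPM with DHT, most of it from ENO2, and CHGB was at 0 counts in all 6. Mitochondrially encoded genes took 8.13 to 8.95% of counts. In bulk RNA, fewer cells with a transcript and less of it per cell cannot be told apart.

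A short DNA word is shown first for the kallikreins, because KLK3 and KLK2, which rose here, have a known androgen response element next to their starts. Each line holds 30 bases from RefSeq's promoter table (GRCh38.p14), read 5′ to 3′ on the gene's strand, with capitals for the 6 bases at the place of the word AGAACA, one arm of the androgen response element.
KLK3: tctagtaattgcAGAACAgcaagtgctagc
KLK2: tctagtatgtgtGGAACAgcaagtgctggc
STK39: tcgccgaggcggAGAACAgcgcgcgctagg
TRPM8: gacatgaagagcAGAACAgccagtgtgcta
The KLK3 bases lie at chr19:50854733-50854762, plus strand, with capitals at -170 to -165 from the start and no gene annotated there in GENCODE 29. The KLK2 bases lie at chr19:50873251-50873280, plus strand, with capitals at -176 to -171, in an untranslated part of an exon of a longer KLK2 transcript. The STK39 bases lie at chr2:168247690-168247719, minus strand, with capitals at -112 to -107, in an untranslated part of an exon of an annotated STK39 transcript. The TRPM8 bases lie at chr2:233979971-233980000, plus strand, with capitals at -166 to -161 from a start inside the gene, in an intron of longer TRPM8 transcripts. AGAACA, on either strand, stood in the 250 bases before the start in 12.39% of 35116 promoter windows, and in 3 of 40 windows of the genes called below, those of KLK3, STK39 and TRPM8. The palindrome GNACANNNTGTNC, which pairs 2 such arms and can hold an AGAACA match, was in 0.3275% of all windows and in 0 of the 40. The word GAACANNNAGTGCT, taken from the KLK3 sequence after it was seen, was in 14 of the 35116 windows, and KLK3 and KLK2 held 2 of them. The 250 bases before KLK3 and KLK2 are 89.0% identical over aligned positions. The 2 genes are near copies also in their transcripts, so reads can be shared between them and each one's count is less certain. These matches are descriptions of the sequence and not binding sites. Of the 34 genes called below, 23 had a window, and the table had none for TMPRSS2, CHRNA2, ADAM7, ST6GALNAC1, EDA, TRGC1, C19orf48, ZNF812 or RP3-483K16.4.

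DHT raised 34 genes after PXN siRNA and lowered none that passed the test. Among the 18468 tested genes that is 0.184% higher and 0% lower (quasi-likelihood test in edgeR, p adjusted by Benjamini-Hochberg and under 0.05), and 1378 genes had an unadjusted p under 0.05, of which 905 were higher and 473 lower. DESeq2's Wald test called 130 higher and 13 lower. The rises ran from 0.44 (BMPR1B) to 4.18 (CHRNA2) on the log2 scale with a median of 1.30, and 21 of the 34 were at least 2-fold. In each of the 34 the 3 DHT libraries lay above the 3 vehicle libraries. The 34 were called from these same libraries, which favours that order, so it is no separate support. Over all tested genes that order was seen in 7.02% and the opposite order in 6.6%. When the fit also held the replicate number as a block shared by both siRNAs, 346 passed, 249 higher (1.35% of those tested) and 97 lower (0.525%), and all 34 were among the 249. The count without the block rested on few libraries: it was 10 without vehicle replicate 3, 15 without vehicle replicate 1, 12 without DHT replicate 2 and 18 without DHT replicate 3, and 71 without vehicle replicate 2 and 70 without DHT replicate 1. Leaving out replicate 1 of the DHT group with non-specific siRNA, which is in neither group compared, gave 80. Among the genes called in each of the 12 fits without 1 library were KLK2, KLK3, TRPM8, ADAM7, PLA2G5, GRIN3A, ST6GALNAC1 and ELOVL7.

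Several kallikreins and other proteases rose. Of 8 tested genes in the list of androgen-induced kallikreins, proteases and secreted proteins 4 rose (KLK2, KLK3, KLK4 and TMPRSS2), where 0.184% of all tested genes did. None fell, and the median log2 fold change was 0.96, against -0.01 over all tested genes. KLK3 encodes prostate-specific antigen, a serine protease of seminal fluid, on chromosome 19 at 50854915 to 50860764 (GRCh38, plus strand). KLK3 was at 142, 192 and 86.3 CPM with vehicle and 538, 673 and 540 CPM with DHT after PXN siRNA. The lowest DHT library was well above the highest vehicle library, and the difference was 4.17-fold (log2 2.06 ± 0.23 SE, edgeR adjusted p = 0.00191). In the cells with non-specific siRNA KLK3 was at 761, 725 and 459 CPM with vehicle and 2250, 2358 and 2097 CPM with DHT. KLK3 with DHT after PXN siRNA thus lay within the range of the untreated cells with non-specific siRNA, and its log2 rise of 2.06 stood beside one of 1.78 ± 0.23 SE there.

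KLK2, a protease of the same cluster that can activate the KLK3 product, lies at 50861568 to 50880567 on chromosome 19 (plus strand). KLK2 was at 10.9, 21.4 and 7.11 CPM with vehicle and 64.8, 141 and 130 CPM with DHT after PXN siRNA, and replicate 1 was the lowest of the DHT libraries. The groups did not overlap and the rise was 8.53-fold (log2 3.09 ± 0.37 SE, edgeR adjusted p = 0.00209). With non-specific siRNA KLK2 went from 36.9 to 65.6 CPM to 261 to 419 CPM (log2 2.79 ± 0.35 SE). KLK4, a further protease of the cluster at 50906352 to 50910738 (minus strand), was at 19.0, 33.4 and 22.9 CPM with vehicle and 38.5, 70.3 and 61.6 CPM with DHT. Its rise was 2.26-fold (log2 1.18 ± 0.21 SE, edgeR adjusted p = 0.0367), and that p ranged from 0.00150 to 0.190 over the fits without 1 library, and the call was lost without vehicle replicate 1 or 3, DHT replicate 2 or 3, or replicate 2 of the vehicle group with non-specific siRNA. No kallikrein passed the test of a difference in response between the siRNAs: the difference in log2 fold change, PXN minus non-specific, was 0.27 for KLK3 (95% interval -0.43 to 0.98), 0.30 for KLK2 (-0.79 to 1.39) and 0.05 for KLK4 (-0.57 to 0.67). These intervals are wide, and differences of those sizes are not shown to be absent.

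TMPRSS2, a membrane-bound serine protease at 41464551 to 41531116 on chromosome 21 (minus strand), had another pattern. TMPRSS2 was at 111, 117 and 106 CPM with vehicle and 184, 286 and 306 CPM with DHT after PXN siRNA, and at 145, 151 and 115 CPM and 449, 631 and 710 CPM with non-specific siRNA. The vehicle levels of the 2 siRNAs overlapped and the DHT levels did not. The rise after PXN siRNA was 2.32-fold (log2 1.22 ± 0.18 SE, edgeR adjusted p = 0.0111), and its adjusted p ranged from 0.000354 to 0.0855 over the fits without 1 library, with the call lost without vehicle replicate 1 or 3 or DHT replicate 2. The log2 rise was 0.91 smaller than with non-specific siRNA (95% interval of the difference -1.46 to -0.35), with an unadjusted interaction p of 0.00285 in edgeR and an adjusted p of 0.729. Of the other list members, AZGP1, KLK15 and MSMB had log2 fold changes of 0.08, 0.74 and 0.52 and ACPP, prostatic acid phosphatase, of -0.28. Their DHT and vehicle libraries overlapped.

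**Figure D1:**
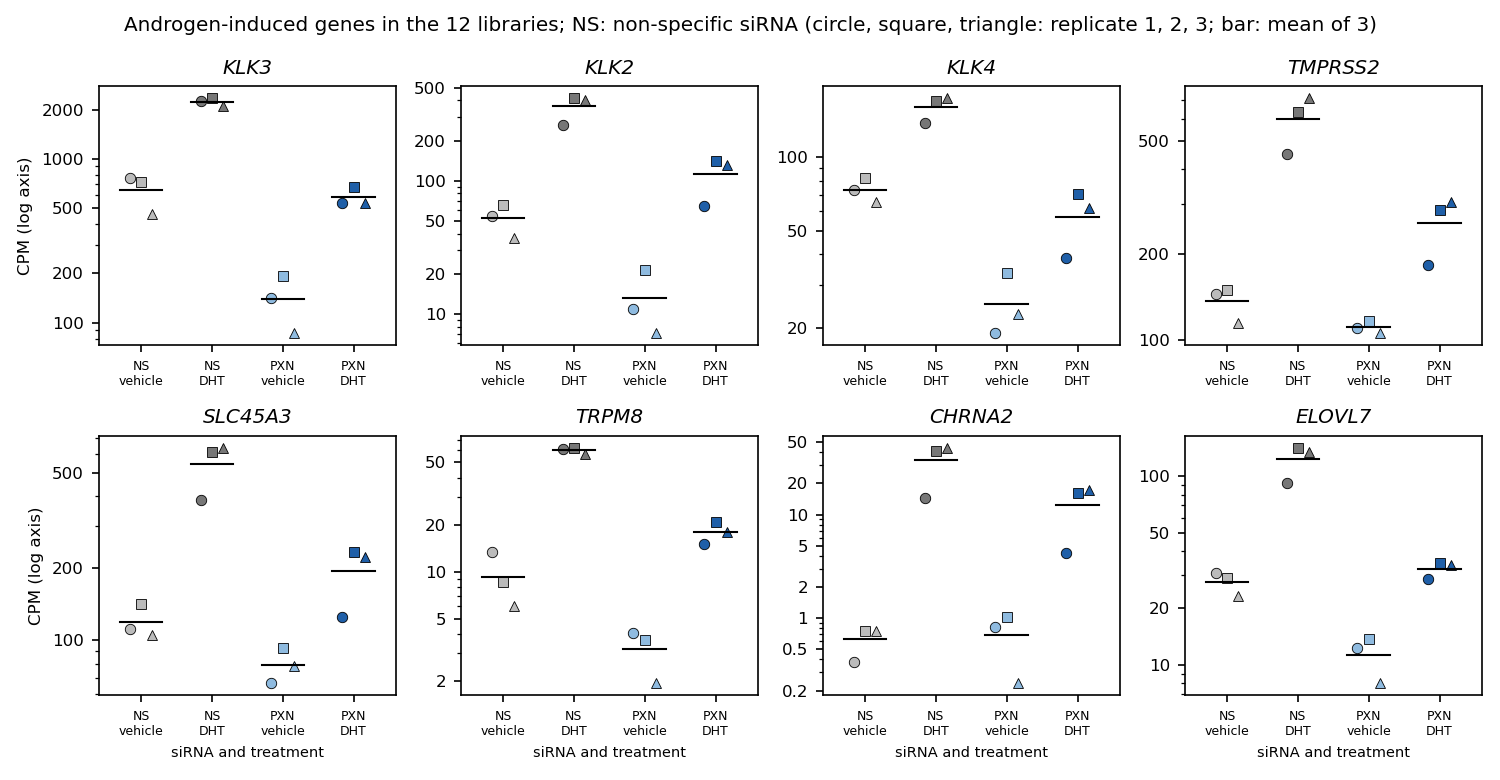
CPM (log axis) of 8 androgen-induced genes in all 12 libraries, by siRNA (NS, non-specific) and treatment; circles, squares and triangles are replicates 1 to 3 and bars are means of 3. In each panel the 3 DHT libraries of the PXN siRNA lie above its 3 vehicle libraries and, except for CHRNA2 in replicates 2 and 3, below the 3 DHT libraries with non-specific siRNA.

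Few regulators and signalling genes passed. Of 24 androgen-induced regulators 1 rose (6 with the replicate block), none fell, and their median log2 fold change was 0.33, beside 0.78 with non-specific siRNA, where 15 rose. Among all tested genes 0.184% rose after PXN siRNA (1.35% with the block) and 2.72% with non-specific siRNA. FKBP5, a co-chaperone of steroid receptors, was at 17.8, 27.6 and 21.1 CPM with vehicle and 29.5, 57.3 and 83.9 CPM with DHT. The FKBP5 libraries did not overlap, but they spread widely among the replicates, and the difference did not pass without the block (log2 1.36 ± 0.38 SE, edgeR adjusted p = 0.262) and did with it (adjusted p = 0.00983). PMEPA1, a regulator of TGF-beta signalling, was at 36.1, 38.5 and 37.2 CPM with vehicle and 55.2, 97.2 and 100 CPM with DHT (log2 1.18 ± 0.23 SE, edgeR adjusted p = 0.0667, with the block 0.00135). ZBTB16, a zinc finger repressor, and CENPN, a centromere protein, had log2 fold changes of 0.77 and 0.80 and passed only with the block, as did SPDEF, an ETS factor of secretory epithelium, at 0.44. In contrast, TSC22D3, MAF, TPD52 and NDRG1 had values of -0.01, 0.02, 0.05 and 0.10, and their DHT and vehicle libraries overlapped. With non-specific siRNA TPD52 and NDRG1 rose, by 0.38 and 0.74, and the interaction had unadjusted p-values of 0.0256 and 0.0298, neither of which passed the adjustment over all genes.

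Of the 16 tested genes for transport, trafficking and membrane proteins 3 rose (8 with the block), where 0.184% of all tested genes did (1.35% with the block). The median was 0.40, beside 0.97 with non-specific siRNA, where 11 rose and 2.72% of all tested genes did. TRPM8, a cold-sensing calcium channel at 233917398 to 234019522 on chromosome 2 (plus strand), was at 4.06, 3.63 and 1.93 CPM with vehicle and 15.1, 20.8 and 17.9 CPM with DHT after PXN siRNA. It rose 5.6-fold (log2 2.49 ± 0.26 SE, edgeR adjusted p = 0.00191), beside 2.68 ± 0.23 SE with non-specific siRNA. SLC45A3, the transporter-like protein known as prostein, was at 66.3, 92.7 and 77.9 CPM with vehicle and 125, 235 and 223 CPM with DHT. Its rise was 2.46-fold (log2 1.30 ± 0.23 SE, edgeR adjusted p = 0.0342) and was 0.89 smaller on the log2 scale than with non-specific siRNA (95% interval -1.58 to -0.20), and its call was lost without vehicle replicate 1 or 3 or DHT replicate 2 or 3 (edgeR adjusted p of up to 0.185). HERC3, a ubiquitin ligase of the HECT family, was at 67.4, 57.7 and 59.3 CPM with vehicle and 97.3, 114 and 120 CPM with DHT. The 1.80-fold rise of HERC3 (log2 0.84 ± 0.11 SE, edgeR adjusted p = 0.00489) lost its call without vehicle replicate 3 (adjusted p = 0.0545). HOMER2, a scaffold protein, and RAB3B, a GTPase of vesicle trafficking, had log2 fold changes of 0.43 and 0.61 and passed only with the block. STEAP1 and STEAP2, membrane proteins of the prostate epithelium, had log2 fold changes of -0.14 and -0.12 after PXN siRNA, with all DHT libraries below all vehicle libraries, and neither passed with either siRNA.

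Of 21 androgen-induced metabolic genes 4 rose (10 with the block), where 0.184% of all tested genes did (1.35% with the block). The median was 0.34, beside 0.71 with non-specific siRNA, where 15 rose and 2.72% of all tested genes did. A pair of enzymes that lengthen fatty acids were among the 4. ELOVL7 was at 12.2, 13.7 and 8.0 CPM with vehicle and 28.4, 34.5 and 33.9 CPM with DHT (log2 1.52 ± 0.19 SE, edgeR adjusted p = 0.00290), and ELOVL5 was at 284, 360 and 268 CPM and 421, 606 and 502 CPM (0.75 ± 0.14 SE, adjusted p = 0.0399). HPGD, which inactivates prostaglandins, was at 0.926, 0.592 and 0.837 CPM with vehicle and 2.11, 5.26 and 6.11 CPM with DHT (log2 2.51 ± 0.40 SE, edgeR adjusted p = 0.0187), and it rose by 3.76 ± 0.39 SE with non-specific siRNA. ABHD2, a lipid hydrolase, was already abundant at 458, 534 and 426 CPM with vehicle and reached 616, 749 and 720 CPM (log2 0.56 ± 0.10 SE, edgeR adjusted p = 0.0401). The calls of ELOVL5, HPGD and ABHD2 were each lost without vehicle replicate 1 or 3 or DHT replicate 2 or 3, with edgeR adjusted p-values of up to 0.201, 0.105 and 0.229. That of HPGD was also lost without vehicle replicate 2, those of ELOVL5 and ABHD2 without replicate 2 of the vehicle group with non-specific siRNA, and that of ABHD2 without replicate 2 of the DHT group there. Polyamine genes did not move detectably: ODC1, SMS, AMD1 and SAT1 had log2 fold changes of 0.06, 0.06, 0.09 and -0.04, each with overlapping libraries.

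Over the 4 androgen-induced lists together, 12 of 69 tested genes rose after PXN siRNA and 28 did with the replicate block, beside 46 with non-specific siRNA. Among all tested genes these shares were 0.184%, 1.35% and 2.72%. The median log2 fold change was 0.38 after PXN siRNA and 0.76 with non-specific siRNA. Of the 69, 60 had the smaller value after PXN siRNA, against 8689 of all 18468, and the lists were chosen with earlier results of these data known. All DHT libraries lay above all vehicle libraries in 35, where 7.02% of all tested genes had that order. They lay below in 4, where 6.6% of all did. The medians of the 3 same-numbered pairs of libraries were 0.21, 0.35 and 0.48.

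Androgen-repressed genes had mostly negative values after PXN siRNA (11 of 14). None of the 14 passed as lower, where 0% of all tested genes did, and 1, OPRK1, passed with the replicate block, where 0.525% of all did. Over the list the median log2 fold change was -0.12, beside -0.49 with non-specific siRNA, where 4 fell and 1 rose. OPRK1, the kappa opioid receptor, was at 32.5, 44.5 and 41.7 CPM with vehicle and 23.4, 23.0 and 28.3 CPM with DHT after PXN siRNA. Its libraries did not overlap, and its log2 fold change was -0.67 ± 0.14 SE (edgeR adjusted p = 0.0986, with the block 0.00719), beside -1.18 ± 0.15 SE with non-specific siRNA. UGT2B15, which inactivates DHT by glucuronidation, was at 897, 1001 and 832 CPM with vehicle and 782, 744 and 668 CPM with DHT (log2 -0.32 ± 0.16 SE, adjusted p = 0.760). BCHE, butyrylcholinesterase, and DDC, the decarboxylase of dopamine and serotonin synthesis, had values of -0.28 and -0.27, and for both the 3 DHT libraries lay below the 3 vehicle libraries. UGT2B17, another androgen-inactivating enzyme, had a log2 fold change of 0.28 with overlapping libraries, and the UGT2B genes are near copies whose reads can be shared.

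The called genes outside the androgen lists covered several functions. CHRNA2, a subunit of the nicotinic acetylcholine receptor at 27459761 to 27479883 on chromosome 8 (minus strand), had the largest rise, from 0.817, 1.02 and 0.235 CPM with vehicle to 4.21, 16 and 17.3 CPM with DHT after PXN siRNA (log2 4.18 ± 0.62 SE, edgeR adjusted p = 0.0111). Its DHT libraries spread from 4.21 to 17.3 CPM, and its call was lost without vehicle replicate 1 or 3 (edgeR adjusted p of up to 0.0874). PLA2G5, a secreted phospholipase, was at 0.109, 0.161 and 0.157 CPM with vehicle and 0.766, 1.5 and 1.91 CPM with DHT (log2 3.25 ± 0.38 SE, adjusted p = 0.00191). GRIN3A, a subunit of the NMDA receptor, was at 4.25, 5.09 and 2.90 CPM and 13.3, 25.4 and 18.7 CPM (log2 2.23 ± 0.26 SE, adjusted p = 0.00191). ADAM7, a protein of the ADAM protease family, rose by 2.88 ± 0.39 SE from at most 0.484 CPM, and ADH1C, an alcohol dehydrogenase, by 2.41 ± 0.44 SE from at most 0.463 CPM. The call of ADH1C was lost without any of the 3 vehicle replicates, without DHT replicate 2 or 3, and without replicate 2 of either group with non-specific siRNA (edgeR adjusted p of up to 0.210). Vehicle means under 1 CPM, which stand for fewer than 38.2 counts, were found for 9 of the 34 genes.

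ST6GALNAC1, the sialyltransferase that makes the sialyl-Tn antigen, was the only gene of 22 in the glycosylation list that rose without the block, where 0.184% of all tested genes did. It was at 3.57, 2.96 and 1.96 CPM with vehicle and 7.68, 15.1 and 13.5 CPM with DHT after PXN siRNA (log2 2.10 ± 0.28 SE, edgeR adjusted p = 0.00486). Of the same list GALNT7, which starts O-linked glycans, and UAP1, which makes UDP-N-acetylglucosamine, passed only with the block (log2 0.38 and 0.44). With the block 1 gene of the list also fell. Among all tested genes 1.35% rose and 0.525% fell with the block, and the list's median was 0.03. TNS3, a tensin of focal adhesions, was the only gene of 37 in the focal adhesion and integrin list that passed, where 0.184% of all tested genes rose. TNS3 was at 0.490, 0.458 and 0.523 CPM with vehicle and 0.984, 1.39 and 1.27 CPM with DHT (log2 1.30 ± 0.22 SE, edgeR adjusted p = 0.0322), and at up to 3.46 CPM with DHT and non-specific siRNA. The call of TNS3 was lost without any of the 3 vehicle replicates and without DHT replicate 2 or 3. The list's median was -0.00, and the scaffolds GIT1 and BCAR1 had values of 0.16 and 0.24 without passing.

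Other genes called were TRGC1, RP3-483K16.4, ALPK2, TENM1, ZNF812, C19orf48, ARHGEF26, STK39, AADAT, EDA, MALT1, FGFRL1, TMTC2 and BMPR1B; those after ALPK2 were named because the calls were few, after their values were seen. Among them STK39, a stress-response kinase that acts on ion cotransporters, was at 46.6, 53.5 and 50.1 CPM with vehicle and 71.3, 96.2 and 95.5 CPM with DHT (log2 0.81 ± 0.13 SE). EDA, the ectodysplasin ligand, was at 18.7, 18.7 and 16.7 CPM and 24.5, 29.7 and 27.4 CPM (log2 0.59 ± 0.09 SE), beside 0.61 with non-specific siRNA. The calls of STK39 and EDA were lost without vehicle replicate 3 or DHT replicate 2, and that of STK39 also without vehicle replicate 1 or DHT replicate 3 (edgeR adjusted p of up to 0.0960 and 0.0855). ARHGEF26, HERC3 and TENM1 overlap a tested gene on the other strand and C19orf48 one on its own strand, and how reads there were assigned was not given in the sources used.

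All 34 genes were also among the 502 that rose with DHT and non-specific siRNA (2.72% of tested genes, against 2.16%, or 398 genes, that fell), so the shared genes are 100% of the smaller list and 6.77% of the larger. The 2 comparisons share no library, but they come from 1 fit of all 12 libraries and share its estimate of the spread. In separate fits of 6 libraries 18 genes were called after PXN siRNA, 17 of them among the 34, and 18 were called as higher with both siRNAs. The 34 were chosen after PXN siRNA, and yet 27 of them had a larger log2 fold change with non-specific siRNA, where their median was 2.14 beside 1.30. The 7 with the larger value after PXN siRNA were KLK2, KLK3, KLK4, ADAM7, GRIN3A, ARHGEF26 and FGFRL1. With DHT, 33 of the 34 had a lower mean CPM after PXN siRNA than with non-specific siRNA, and 9 did not reach the mean of the vehicle libraries with non-specific siRNA. With vehicle, 27 were already lower after PXN siRNA. The test of the difference between the responses called no gene (0% of 18468, smallest adjusted p 0.115, with 778 genes at an unadjusted p under 0.05, 388 of them positive), and among the 34 the smallest adjusted p without the block was 0.520. With the replicate block 58 genes passed this test, 18 higher and 40 lower, and SLC45A3 was the only one of the 34 among them (adjusted p = 0.0362). That block was shared by both siRNAs, while same-numbered libraries of different groups correlated at only -0.0256 to 0.383, so these calls are less certain. DESeq2's Wald test of the same difference called 37 genes, 34 of them with the lower log2 fold change after PXN siRNA, and without replicate 1 of the DHT group with non-specific siRNA edgeR called 45.

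**Figure D2:**
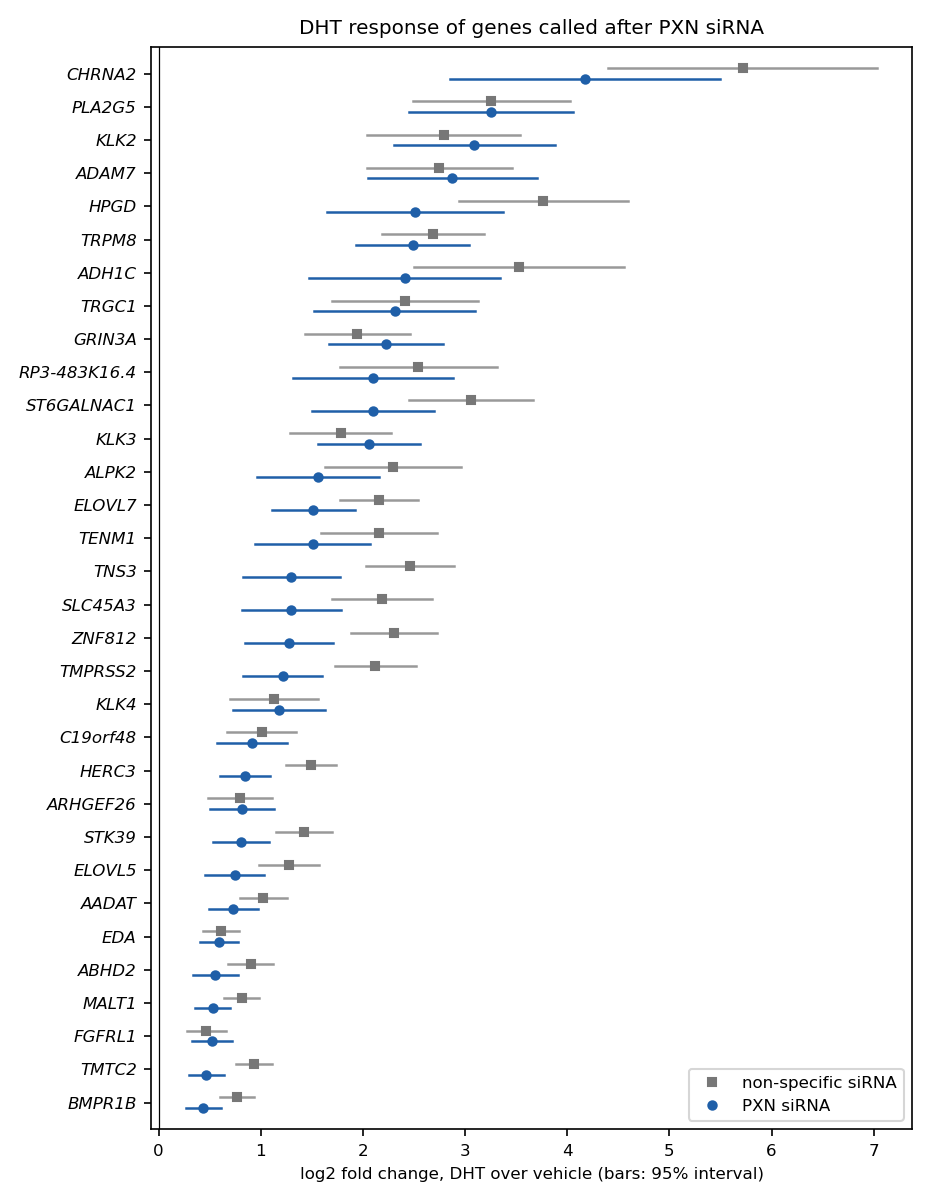
Log2 fold change (DHT over vehicle) with 95% intervals of 32 of the 34 genes called after PXN siRNA (blue circles), with the value of the same gene with non-specific siRNA (grey squares). All 32 blue points are above 0, and 25 lie to the left of their grey square, among them TMPRSS2, SLC45A3 and TNS3, while KLK3 and KLK2 lie to the right.

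The larger set of androgen-responsive genes was read in the other direction, choosing genes with non-specific siRNA and reading them after PXN siRNA. Of the 502 that rose with non-specific siRNA, 483 (96.2%) had a positive log2 fold change after PXN siRNA, 266 (53%) had all 3 DHT libraries above all 3 vehicle libraries, and none had them all below. The background of those orders was 7.02% and 6.6%. Their median was 0.26 after PXN siRNA and 0.58 with non-specific siRNA, where the choice of genes favours large values. Of the 398 that fell with non-specific siRNA, 389 (97.7%) had a negative value after PXN siRNA, 198 (49.7%) had all DHT libraries below all vehicle libraries, and none had them all above. Their median was -0.20 after PXN siRNA and -0.48 with non-specific siRNA. The medians after PXN siRNA moved with the genes chosen: for the risers they were 0.15 when chosen and read with the replicate block, 0.12 with the block in fits of 6 libraries and 1.22 when a fold change over 1.5 was tested, and for the fallers -0.13 and -0.60 in those last 2 settings. With the replicate block 147 of the 502 passed after PXN siRNA (29.3% of them, and 59.0% of the 249 that rose) and 67 of the 398 did (16.8%, and 69.1% of the 97 that fell). With the block 2236 genes passed with non-specific siRNA, beside 900 without it.

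**Figure D3:**
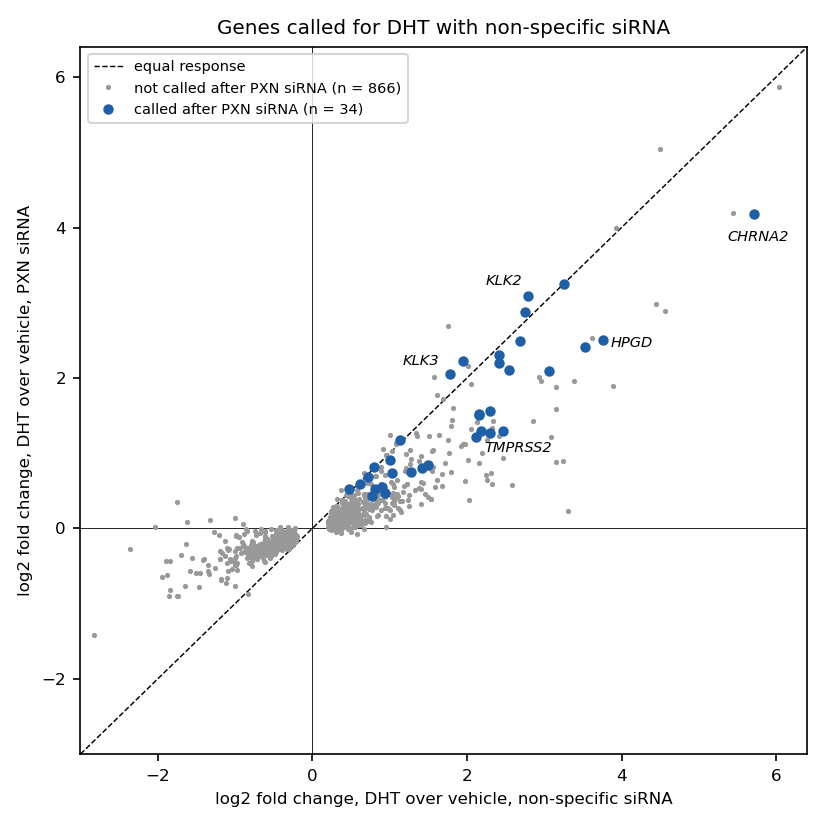
Log2 fold changes (DHT over vehicle) of the 900 genes called with non-specific siRNA, in the non-specific siRNA cells (x axis) and after PXN siRNA (y axis), with the 34 genes called in both in blue and a dashed line where both would be equal. Points lie on the same side of 0 on both axes for 483 of 502 genes that rose and 389 of 398 that fell, and most lie nearer to 0 on the y axis.

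The genes with the smallest interaction p were FAM174B, ALDH1A3 and TMEM164, none of which passed. ALDH1A3, which makes retinoic acid, was at 48.2, 43.3 and 51.3 CPM with vehicle and 59.0, 61.1 and 65.6 CPM with DHT after PXN siRNA, and went from 20.9 to 27.5 CPM to 50.3 to 58.9 CPM with non-specific siRNA. Its vehicle level was thus higher after PXN siRNA as was, by less, its DHT level, and the log2 rise was 0.38 beside 1.24 (interaction adjusted p = 0.156 in edgeR). FAM174B had rises of 0.36 and 1.17 (adjusted p = 0.115). TMEM164 had a value of -0.01 after PXN siRNA, with overlapping libraries, and of 0.67 with non-specific siRNA (adjusted p = 0.156).

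In edgeR's fit of all 12 libraries without the block, with the low-count filter and TMM scaling, no fall passed. Fits of that kind without 1 library called 0 to 13 falls. With the block 97 genes were lower, 38 of them with overlapping groups, and the median fall was 0.30 on the log2 scale. All 97 were lower in each of the 3 same-numbered pairs, an agreement that choosing them with the block favours and that is no separate support. All 97 also had a negative value with non-specific siRNA. The 11 with the smallest p, named after their values were seen, were VWA2, AMIGO2, SLC12A2, DENND1B, ARRDC3, SESN1, PTPN13, MYRIP, TMEM38B, OPRK1 and TRPS1. VWA2, an extracellular matrix protein, was at 15.2, 12.9 and 13.0 CPM with vehicle and 9.41, 7.01 and 7.46 CPM with DHT. It had the largest fall of the 11 (log2 -0.78 ± 0.17 SE, edgeR adjusted p = 0.115, with the block 0.000807). SLC12A2, a sodium, potassium and chloride cotransporter, was at 254, 249 and 232 CPM with vehicle and 209, 171 and 181 CPM with DHT (log2 -0.39 ± 0.10 SE, adjusted p = 0.224, with the block 0.00357). SESN1, a stress-induced regulator of mTORC1 and a p53 target, was at 361, 351 and 343 CPM and 311, 258 and 257 CPM (log2 -0.35 ± 0.10 SE, adjusted p = 0.297, with the block 0.00623). It was the only one of 25 p53 targets to pass in either fit, where 0.525% of all tested genes fell with the block. The list's median was -0.05. Counts of falls with the block were 89 without the libraries of replicate 1, 7 without those of replicate 2 and 5 without those of replicate 3.

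**Figure D4:**
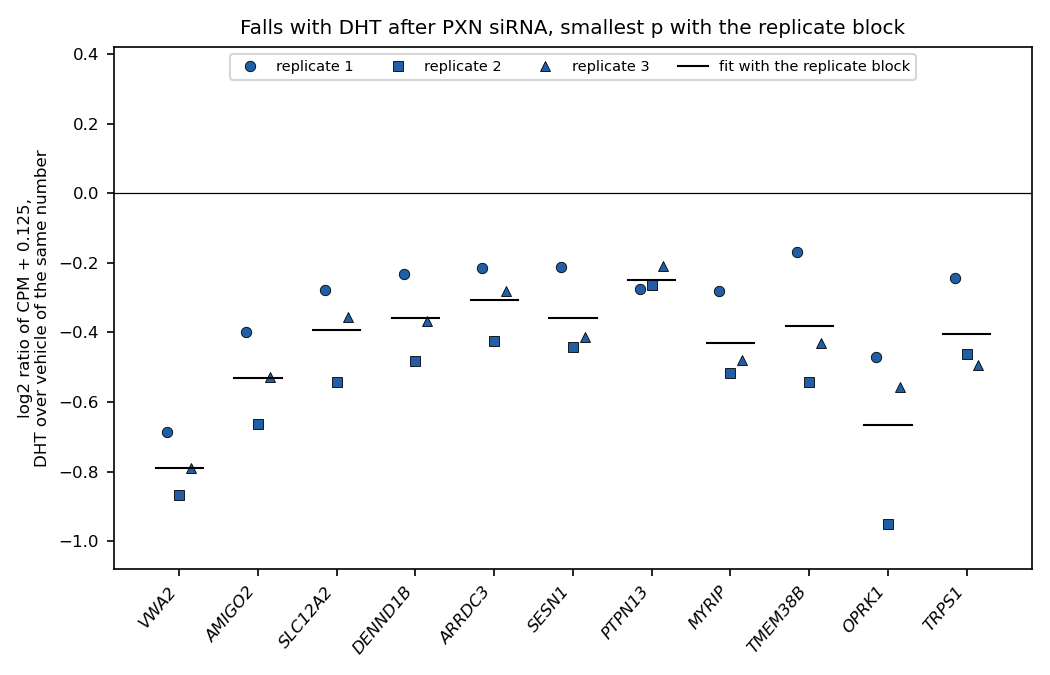
Log2 ratio of DHT to vehicle (CPM + 0.125) in each same-numbered pair of libraries after PXN siRNA, for the 11 falls with the smallest p when the replicate number is a block; the bar is the fitted log2 fold change. All points lie below 0, which the choice of genes with the block favours, from about -0.95 for OPRK1 in replicate 2 to about -0.17 for TMEM38B in replicate 1.

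The size of the response differed between same-numbered pairs. Over the 34 called genes the median log2 ratio of DHT to vehicle (CPM + 0.125) was 0.84 in pair 1, 1.33 in pair 2 and 1.47 in pair 3. Pair 1 had the smallest ratio for 31 of the 34 and pair 3 the largest for 28. With non-specific siRNA the 34 genes summed to 4421, 4213 and 3553 CPM with vehicle (replicates 1 to 3). With DHT they summed there to 9476, 10929 and 10978 CPM, so the rise was smallest in replicate 1 there too. CHRNA2 had ratios of 2.20, 3.82 and 5.59, and FKBP5 of 0.73, 1.05 and 1.98. KLK3, at 1.92, 1.81 and 2.64, had its lowest in pair 2. What the numbers mark is not given in the labels, and what sets the difference was not tested.

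The remaining lists held few calls. None of 38 DNA replication and G1/S genes passed without the block and 4 rose with it, where 1.35% of all tested genes did. The median log2 fold change of the 38 was 0.21 beside 0.19 with non-specific siRNA. CDT1, a licensing factor of replication origins, was at 9.07, 9.53 and 10.1 CPM with vehicle and 14.0, 14.5 and 10.3 CPM with DHT, and CDC6, its partner, had a log2 fold change of 0.61. None of 36 mitosis and G2/M genes passed in either fit, yet all 36 had a positive fitted value after PXN siRNA (median 0.20), while with non-specific siRNA the median was -0.01. That direction did not hold in all pairs: 36 were higher in pair 1, 10 in pair 2 and 34 in pair 3, with median log2 ratios of 0.53, -0.09 and 0.20. The summed mitosis genes were at 422, 707 and 425 CPM with vehicle and 612, 661 and 492 CPM with DHT after PXN siRNA, against 2023 to 2272 CPM in the 6 libraries with non-specific siRNA, and vehicle replicate 2 was the highest of the 6 after PXN siRNA. CENPA, the centromeric histone, had the smallest p of the list (log2 0.51 ± 0.19 SE, edgeR adjusted p = 0.506).

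For the lists below, the shares of all tested genes were 0.184% higher and 0% lower without the block, and 1.35% and 0.525% with it. In the sterol and fatty acid synthesis list none of 32 passed without the block and 2 rose with it, FASN, the fatty acid synthase, and MVD of the mevalonate pathway. The median was 0.13 with 28 of 32 positive. FASN was at 936, 1277 and 1303 CPM with vehicle and 1174, 1753 and 1601 CPM with DHT, so the groups overlapped while each same-numbered pair rose (log2 ratios 0.33, 0.46 and 0.30). None of 29 tested genes in the list of chaperones, pioneer factors and coregulators passed without the block, and NRIP1, a corepressor, fell with it (log2 -0.22). Of 29 genes of glycolysis and hypoxia none passed without the block, and with it HK2, hexokinase, rose by 0.33 and SLC2A3, a glucose transporter at no more than 0.304 CPM after PXN siRNA, passed. The unfolded protein response (25 genes), MAPK and immediate early genes (22 tested), the interferon response (38) and mitochondrially encoded genes (13) had no call without the block and medians of 0.03, 0.01, -0.10 and -0.02. With the block 1 of these passed, SDF2L1 of the endoplasmic reticulum (log2 0.48).

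**Figure D5:**
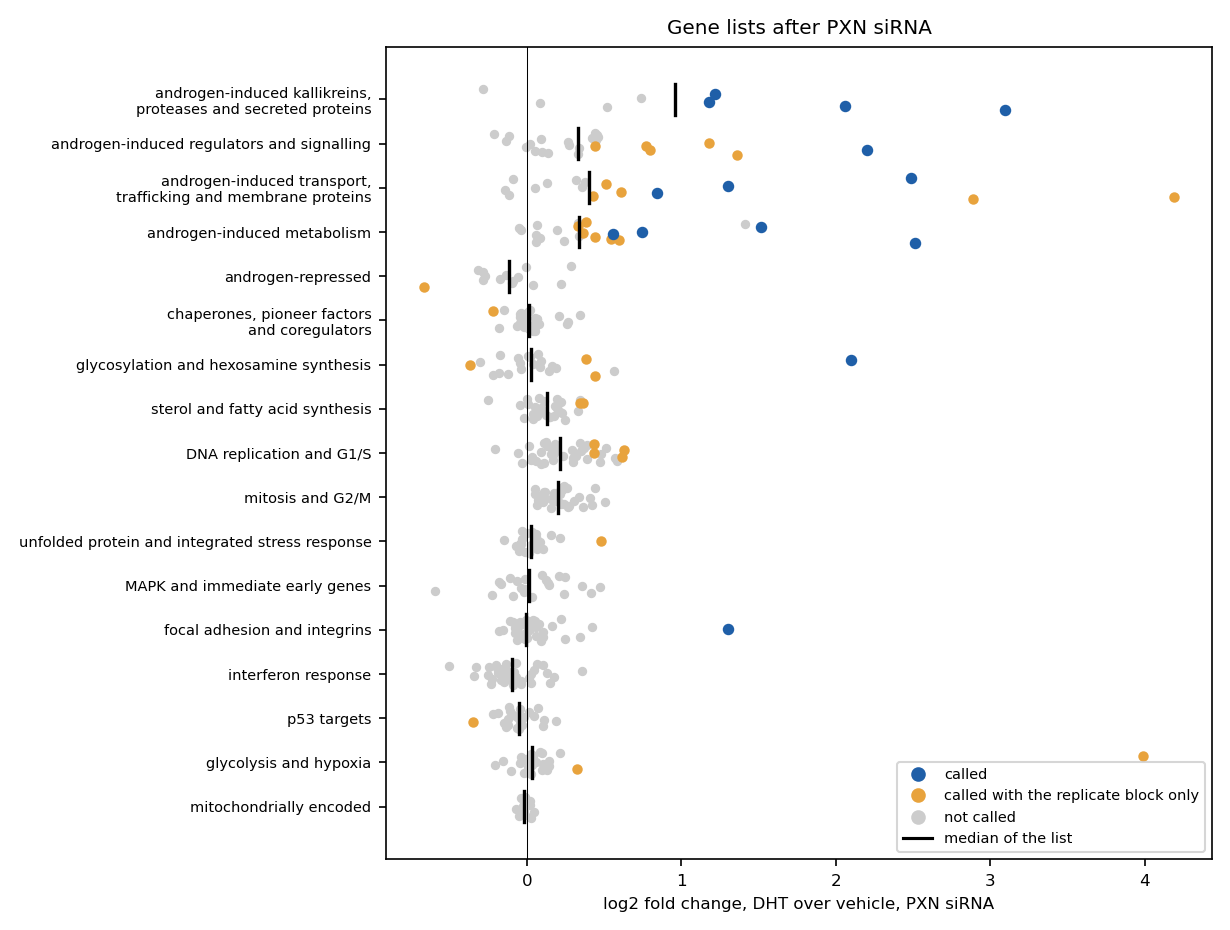
Log2 fold change (DHT over vehicle) after PXN siRNA of each tested gene in 17 lists; blue genes were called, orange genes only with the replicate block, grey genes in neither, and bars are list medians. Blue points are found in the 4 androgen-induced lists, the glycosylation list and the focal adhesion list, and the medians of the androgen-induced lists lie between 0.33 and 0.96.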

How the data were processed

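The authors deposited whole-number counts per gene symbol for 12 libraries, and the submitters' processing notes name featureCounts, Trimmomatic 0.32, STAR 2.4.2a, Subread 1.5.0p3 and the build GRCh38. mRNA was prepared as TruSeq Stranded libraries, per the labels' protocols. Strand setting and annotation: not given in the sources used here. Groups were taken from each sample's own label, and no library was left out. No 2 replicates agreed within sampling noise (chi-square per gene 6.03 to 26.6).

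In R 4.3.3 with edgeR 4.0.16, genes were filtered with filterByExpr (17669 of 36137 left out), TMM set the library scaling, and a single quasi-likelihood fit of all 12 libraries estimated 4 means (8 degrees of freedom remain). Tests were two-sided, p-values were adjusted by Benjamini-Hochberg over the 18468 tested genes, and a gene was called at an adjusted p under 0.05. CPM use the TMM-scaled library size. The SE is the log2 fold change divided by the square root of F. Intervals are 95%, those of a difference between siRNAs from the SEs of both responses. The model without the block was also run on simulated counts, to check its log2 fold changes. Those counts held no replicate effect, so that run does not bear on the block.

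Groups share replicate numbers of unstated meaning. Each library's deviations from its group mean correlated at 0.299, 0.307 and 0.100 in the same-numbered pairs of DHT and vehicle after PXN siRNA, and at -0.268 to -0.0194 in the other pairs. Deviations from a group mean cancel out within the group, so positive values in same-numbered pairs favour negative ones in the other pairs. The negative range is thus no separate support for a pairing. Each of the 3 same-numbered values is over the limit of 0.1, the last one barely, so the blocked fit is given beside the results. The blocked fit of all 12 libraries gave each replicate number the same effect in all 4 groups, also for the calls after PXN siRNA. For the interaction the 18 pairs lay at -0.0256 to 0.383, not all over the limit, so the block rests on less there.

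The rule for named genes takes PXN, KLK2, KLK3, TMPRSS2 and FKBP5, the 15 largest called rises and falls whose higher group reached a mean of 1 CPM and whose groups did not overlap, up to 4 members of each of 21 lists by p, and the 3 smallest interaction p-values. Some genes it takes are not reported here. Other names were chosen after their values were seen. The comparison, the lists and the rule were chosen with earlier results of these data known. Alternatives were other scalings, filters, tests (DESeq2 1.42.0, limma-voom 3.58.1), thresholds, fits of 6 libraries, the replicate block, and leaving out libraries. Positions come from GENCODE 29 on GRCh38, which matched 32 of the 34 called genes, and promoters from RefSeq (GRCh38.p14). Sequences were aligned with Biopython 1.88 in Python 3.11.15.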

Additional observations from a re-analysis of the deposited data

Results flagged for a closer look

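PDGFRB, a receptor of mesenchymal cells that counts among the stromal markers, had values of opposite sign with the 2 siRNAs. Each same-numbered pair fell with DHT after PXN siRNA and each rose with non-specific siRNA, but neither response was called. After PXN siRNA the groups overlapped, and the edgeR adjusted p was at least 0.733 in the fits without 1 library. It was at 0.327, 0.781 and 0.444 CPM with vehicle and 0.137, 0.388 and 0.414 CPM with DHT after PXN siRNA, and at 0.495, 0.352 and 0.403 CPM and 0.653, 0.637 and 0.713 CPM with non-specific siRNA. The difference between the responses was -1.40 on the log2 scale, and it did not pass edgeR's interaction test over all genes (unadjusted p = 0.0215). Its highest count after PXN siRNA was 29.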

How the results depend on the processing

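The count after PXN siRNA (34 higher, 0 lower) was 188 (169 higher, 19 lower) with no low-count filter, 143 (130, 13) with DESeq2's Wald test, 18 (18, 0) in a fit of its own 6 libraries, 11 (11, 0) at an adjusted p of 0.01, 10 (10, 0) when a fold change over 1.5 was tested, and with upper-quartile scaling it held 1 fall. With the replicate block it was 346 (249, 97), with the block in its own 6 libraries 778 (429, 349), with the block in DESeq2 467 (324, 143) and in limma-voom 342 (237, 105). With the block and without the libraries of replicate 1, 2 or 3 it was 278 (189, 89), 109 (102, 7) and 103 (98, 5). Without 1 library it ran from 10 to 80, with 10 to 71 higher and 0 to 13 lower. The 34 genes were all called under DESeq2 size factors, upper-quartile scaling, no filter, DESeq2 and the block, and 24 of them under limma-voom and 17 in the fit of 6 libraries.

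With non-specific siRNA the count (900, 502 higher and 398 lower) was 2236 (1140, 1096) with the block, 3421 (1924, 1497) with the block in its own 6 libraries, 1999 (1093, 906) with the block in DESeq2, 2231 (1135, 1096) with it in limma-voom, 1758 (970, 788) and 1792 (988, 804) with the block and without replicate 1 or 2, 406 (267, 139) at an adjusted p of 0.01 and 79 (69, 10) over a fold change of 1.5. Its falls numbered 239 in a fit of its own 6 libraries. Without 1 library it ran from 416 to 1361 (290 to 683 higher, 124 to 678 lower).

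The interaction (0 genes) gave 1 (lower) with DESeq2 size factors, 35 (2 higher, 33 lower) with no filter, 37 (3, 34) with DESeq2, 58 (18, 40) with the block, 156 (50, 106) with the block in DESeq2, 60 (18, 42) with it in limma-voom, 87 (22, 65) and 1 (0, 1) with the block and without replicate 1 or 2, and 0 to 45 without 1 library (0 to 10 higher, 0 to 35 lower).

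Genes called with both siRNAs under the same setting (34 higher, 0 lower) numbered 127 and 17 with no filter, 103 and 12 with DESeq2, 18 higher in fits of 6 libraries, 11 at the stricter p, 10 over the fold change, and 1 lower with upper-quartile scaling. With the block they numbered 192 and 89, in fits of 6 libraries 360 and 305, in DESeq2 228 and 134, in limma-voom 186 and 95, without replicate 1 168 and 87, without replicate 2 87 and 6, and without replicate 3 3 lower. Without 1 library they ran from 10 to 69 and from 0 to 13.

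Changes of sign were looked for only in genes taken by the naming rule and in the other called genes. They were found only for genes that were not called and whose log2 fold change in the fit of all libraries without the block lay near 0. Over the fits without 1 library ENO2 ran from -0.11 to 0.078, SYP from -0.11 to 0.26, MT-ATP8 from -0.11 to 0.034, MT-ATP6 from -0.083 to 0.044 and TMEM164 from -0.044 to 0.040 on the log2 scale. With the block and without replicate 1, PXN was at -0.049 and TMEM164 at 0.055. With the block, MT-ATP6 was at 0.0073 without replicate 2, and MT-CYB was at -0.0053 and SYP at -0.23 without replicate 3. The cause of these changes was not tested.

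Depth limits the lowest genes: 1 CPM stands for 33.65 to 38.2 counts, and genes under 1 CPM rest on fewer.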

Other observations

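With the replicate block in both comparisons, 65 of the 346 genes called after PXN siRNA were not called in the same direction with non-specific siRNA, where 2236 genes passed. Of the 65, 57 were higher and 8 lower, and edgeR's interaction test called 0 of them with or without the block. The genes named here were chosen after their values were seen. PEG3, an imprinted zinc finger gene, was at 64.4, 70.4 and 47.2 CPM with vehicle and 93.9, 94.5 and 100 CPM with DHT after PXN siRNA (log2 0.67 ± 0.14 SE, edgeR adjusted p = 0.0862, with the block 0.00181). With non-specific siRNA PEG3 was at 173 to 207 CPM with vehicle and 172 to 246 CPM with DHT (log2 0.11 ± 0.13 SE), and the difference between the responses was 0.56 (95% interval 0.15 to 0.97, interaction adjusted p = 0.947). H2AFX, the histone variant of DNA damage signalling, was at 26.7, 31.1 and 31.1 CPM and 37.6, 49.5 and 35.7 CPM after PXN siRNA (log2 0.46 ± 0.11 SE, edgeR adjusted p = 0.129, with the block 0.00763), beside 0.20 with non-specific siRNA. NPIPB5, of a family of near-identical copies whose reads can be shared, was at 3.30, 6.46 and 3.01 CPM and 6.43, 17.8 and 7.71 CPM (log2 1.32 ± 0.35 SE), with overlapping groups.

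Some genes outside the lists rose in each same-numbered pair, which a choice with the block favours, and passed in edgeR only with the block. PEX10, a ubiquitin ligase of peroxisome import, was at 40.6, 57.2 and 52.5 CPM with vehicle and 64.5, 102 and 89.7 CPM with DHT after PXN siRNA, with pair log2 ratios of 0.66, 0.83 and 0.77 (edgeR adjusted p = 0.0862, with the block 1.36e-05). HES6, a transcription factor of the hairy and enhancer of split family, was at 8.96, 12.5 and 12.4 CPM and 17.3, 35.3 and 26.5 CPM (log2 1.22 ± 0.23 SE, adjusted p = 0.0575, with the block 2.66e-05). GREB1, a hormone-regulated coactivator, was at 14.8, 25.9 and 20.2 CPM and 23.5, 50.6 and 50.4 CPM, with overlapping groups (log2 1.03 ± 0.31 SE, adjusted p = 0.328, with the block 0.000101). RPL5P9, a pseudogene of a ribosomal protein at no more than 0.418 CPM in these 6 libraries, had the only fall of at least 2-fold with the block.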
